A study of Mus musculus with 12 samples.

Results

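The 78 protein-coding genes described here encode proteins of the mitochondrial ribosome. They were taken by name, as every gene of class protein_coding whose symbol was Mrpl or Mrps followed by a digit, from the 55487 genes listed in both count tables. By name 49 belonged to the large subunit (Mrpl) and 29 to the small subunit (Mrps). All 78 passed the low-count filter in every comparison. 3 of the symbols go against their prefix in the known structure of the mammalian particle. Mrps30 and Mrps18a encode proteins of the large subunit, and Mrps36 encodes a part of the 2-oxoglutarate dehydrogenase complex. By structure the large subunit therefore had 51 members and the small subunit 26.

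RNA-seq was run on mouse bone marrow cells in 4 groups of 3 libraries, in a study of chemoresistance driven by sPrdm16, the form of the transcription factor gene Prdm16 that the labels give that name. Normal marrow cells (WT) had no fusion vector and were transduced with a mock retrovirus (WT mock) or a retrovirus expressing sPrdm16 (WT sPrdm16). Marrow cells first transduced with a retroviral MLL::AF9 vector, the leukaemia fusion of MLL with AF9, then received a mock vector (MA9 mock) or the sPrdm16 vector (MA9 sPrdm16). Each group thus carried a mock or sPrdm16 retrovirus, on top of the fusion vector in MA9, and neither mouse strain, age, sex nor the number of cultures behind the 3 libraries of a group is given in the sources used here. If the libraries share a culture, the p-values below measure a spread that may be technical. Growth in medium with mouse IL-3 is stated for the MA9 cells alone.

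Mitochondria keep their own ribosome, which translates the few mRNAs of the mitochondrial genome, all of them for membrane subunits of the respiratory chain and ATP synthase. Its rRNAs come from the mitochondrial genome, while all of its proteins are encoded in the nucleus, translated in the cytosol and imported. Some of these proteins descend from bacterial ribosomal proteins and others were added in mitochondria. Leukaemia cells are known to draw on mitochondrial translation for respiration.

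The stretches before the start sites of 5 members are shown because these genes stood at the ends of the comparisons below. Mrps27 rose furthest in WT, Mrps21 was high per length and fell in WT, Mrpl34 rose in MA9 with little spread, Mrpl17 rose in both genotypes, and Mrpl32 had the widest gap between the genotypes. Each runs 5′ to 3′ on the gene's strand over the 250 bases before the RefSeq start (assembly GRCm38.p6). Capitals mark matches to an NRF1 motif (GCGC and TGCGC with any base between them), an ETS motif (CCGGAAG) or a YY1 motif (AAGATGG) on either strand. The stretches lie at chr13:99344536-99344785, plus strand for Mrps27, at chr3:95871515-95871764, minus strand for Mrps21 and at chr8:71464676-71464925, plus strand for Mrpl34. Those of Mrpl17 and Mrpl32 lie at chr7:105811088-105811337, minus strand and at chr13:14613038-14613287, minus strand.
Mrps27: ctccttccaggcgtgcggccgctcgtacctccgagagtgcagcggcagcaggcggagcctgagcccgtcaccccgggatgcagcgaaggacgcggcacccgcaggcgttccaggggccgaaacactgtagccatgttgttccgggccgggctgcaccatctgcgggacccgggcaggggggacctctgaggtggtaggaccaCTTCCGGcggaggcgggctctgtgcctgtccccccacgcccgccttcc
Mrps21: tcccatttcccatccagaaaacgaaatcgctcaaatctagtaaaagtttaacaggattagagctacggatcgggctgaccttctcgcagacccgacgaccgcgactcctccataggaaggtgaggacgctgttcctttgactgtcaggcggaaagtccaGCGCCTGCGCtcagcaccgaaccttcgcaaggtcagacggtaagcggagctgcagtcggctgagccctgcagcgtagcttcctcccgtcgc
Mrpl34: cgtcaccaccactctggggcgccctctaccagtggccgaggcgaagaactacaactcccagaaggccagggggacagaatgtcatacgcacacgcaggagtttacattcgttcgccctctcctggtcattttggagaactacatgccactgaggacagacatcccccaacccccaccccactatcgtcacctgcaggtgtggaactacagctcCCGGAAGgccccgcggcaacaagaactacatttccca
Mrpl17: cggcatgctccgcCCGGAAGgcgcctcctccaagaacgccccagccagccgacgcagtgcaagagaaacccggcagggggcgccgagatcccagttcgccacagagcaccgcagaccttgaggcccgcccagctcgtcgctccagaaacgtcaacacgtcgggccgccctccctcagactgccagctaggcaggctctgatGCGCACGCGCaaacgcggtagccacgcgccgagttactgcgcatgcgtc
Mrpl32: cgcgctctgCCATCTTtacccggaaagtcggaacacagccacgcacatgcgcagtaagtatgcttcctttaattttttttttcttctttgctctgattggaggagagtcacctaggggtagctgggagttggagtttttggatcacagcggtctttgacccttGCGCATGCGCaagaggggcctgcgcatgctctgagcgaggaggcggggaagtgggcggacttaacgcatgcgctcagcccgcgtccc

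A window from 250 bases before to 50 bases after the start was given for 69 of the 78 members. The ETS motif lay in 24 of these windows (34.8%) and in 12.2% of the windows of 16802 nuclear protein-coding genes. Those 16802 genes were taken whether or not they passed the low-count filter, which all members passed, so the sets are unlike in expression. The NRF1 motif lay in 13 windows (18.8%, against 6.89%), the YY1 motif in another count of 13 (18.8%, against 6.39%) and the E-box CACGTG in 5 (7.25%, against 8.08%). No motif searched contains another, and 41 of the 69 windows held at least 1 of NRF1, ETS and YY1, against 22.8% of all windows. Members that moved in opposite directions both carried them. The ETS motif lay in 6 of 15 windows of genes that rose in WT and in 5 of 9 of those that fell, and the NRF1 motif in 3 of 15 and 2 of 9. Among genes that rose in MA9 each of these motifs lay in 5 of 13 windows. A match describes letters in the window and not a bound site. The RefSeq start lay up to 17016 bases from the deposited gene start, for Mrpl33, which is 1 of the 5 with an ETS motif that fell in WT.

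Libraries held 17217159 to 37390945 counts, of which the members took 11309 to 22590 in MA9 cells with mock, 54021 to 88290 with sPrdm16 and 77940 to 90457 in WT. In MA9 the targeted gene, Prdm16, was at 0 counts in each mock library and at 5353 to 8889 counts with sPrdm16, and WT libraries held 0 to 22 counts of it with mock and 708 to 950.0 with sPrdm16. In MA9 mock, nuclear protein-coding genes took 34.2%, 32.1% and 18.3% of the counts, against 75.3% to 75.7% with sPrdm16 and 91.5% to 94.5% in WT. The mitochondrial rRNAs, the RNA part of the particle described here, took 42.4% ± 5.81 (SD, n = 3) of MA9 mock and 11.04% ± 0.163 of MA9 sPrdm16 counts, and 0.815% ± 0.114 and 0.566% ± 0.113 of the counts of WT cells with mock and with sPrdm16. The rRNA share was lower with sPrdm16 in both genotypes, and its part in the members' values was not tested. General marrow leukocyte markers (7 genes, Ptprc and Spi1 among them) were detected in all groups, with summed levels of 841 to 950.4 CPM in MA9 mock and 899 to 914 CPM in MA9 with sPrdm16, where 1 of the 7 rose, and of 2372 to 2642 CPM in WT mock and 1980.2 to 2019.7 CPM in WT with sPrdm16, where 4 fell and Kit rose. CPM, used here for all levels, are counts scaled to a common library size with TMM factors, which align libraries on the bulk of their genes.

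As a whole, the members took a larger share of nuclear protein-coding counts with sPrdm16 in both genotypes. Their share was 0.272%, 0.305% and 0.294% in the MA9 mock libraries and 0.317%, 0.313% and 0.320% in MA9 sPrdm16. In WT it was 0.448%, 0.468% and 0.470% with mock and 0.508%, 0.534% and 0.555% with sPrdm16. Within each genotype every sPrdm16 library was above every mock library, and every WT library was above every MA9 library. In bulk RNA, a smaller share of cells that express a gene and less of its RNA per cell cannot be told apart. On a common TMM scale over the 12 libraries, the summed level in MA9 was 1449.8 to 1669 CPM with mock and 1824 to 1844 CPM with sPrdm16. In WT the summed levels of 3562 to 3734 CPM with mock and 3632 to 3997 CPM with sPrdm16 overlapped, so the WT difference in share depends on the denominator. The ratio of the large to the small subunit sum was 1.78 ± 0.0526 (SD, n = 3) for MA9 with mock and 1.82 ± 0.0132 with sPrdm16, and for WT 1.85 ± 0.0197 and 1.79 ± 0.0433, with overlapping libraries within each genotype. No test was run on these sums, since the members were chosen with results known.

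**Figure D1:**
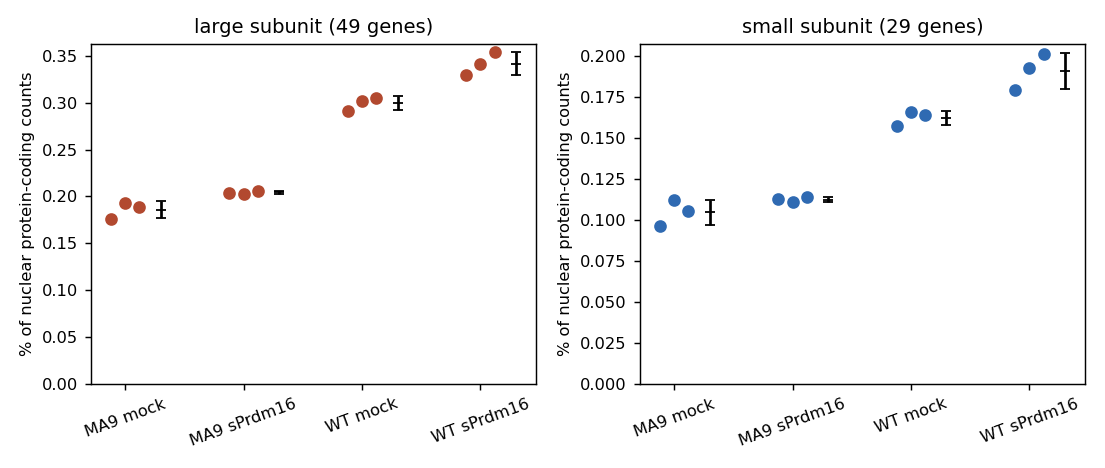
Share of nuclear protein-coding counts (%, vertical axis from 0) taken by the large (left) and small (right) subunit genes in each group. Points are the 3 libraries and the bar beside them is the mean ± SD. In the large subunit the MA9 mock mean was 0.186% and the WT sPrdm16 mean 0.342%, and both subunits had their means in the same order of groups. The MA9 groups overlapped for the small subunit.

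Most members were lower in MA9 mock than in WT mock. On the 12-library scale all 3 MA9 mock libraries were below all 3 WT mock libraries for 62 members, and above them for 4 (Mrps22, Mrps5, Mrpl3 and Mrps9), while 12 overlapped. Of the 16194 genes in the fit, 37.9% were lower in this sense and 34.5% higher, and of nuclear protein-coding genes 42.8% and 31.7%. The median ratio of MA9 mock to WT mock was 0.403 over the members, 0.894 over all genes and 0.820 over nuclear protein-coding genes. Each genotype came in its own table, so genotype and table cannot be told apart and the difference was not tested. With total counts in place of TMM, 76 members were lower and 0 higher, against 56.8% and 11.9% of all genes.

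The spread among members was wide. Mrpl14, a conserved protein of the face that meets the small subunit, was at 4.10, 5.54 and 2.58 CPM in the MA9 mock libraries and 42.0, 48.6 and 44.1 CPM in WT mock, a ratio of 0.0907. Mrpl4 and Mrpl34, both with bacterial counterparts in the large subunit, had ratios of 0.131 and 0.144. At the other end Mrps22, a small subunit protein with no bacterial counterpart, was at 17.0, 17.7 and 17.1 CPM in MA9 mock and 9.42, 7.40 and 7.96 CPM in WT mock, a ratio of 2.09. Mrpl3, which lies near the peptidyl transferase centre, was at 32.8, 34.3 and 35.7 CPM in MA9 mock and 25.2, 29.8 and 27.3 CPM in WT mock. Members of 1 particle thus ranged over more than an order of magnitude in this ratio, in both subunits, with medians of 0.407 for the large and 0.362 for the small subunit.

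**Figure D2:**
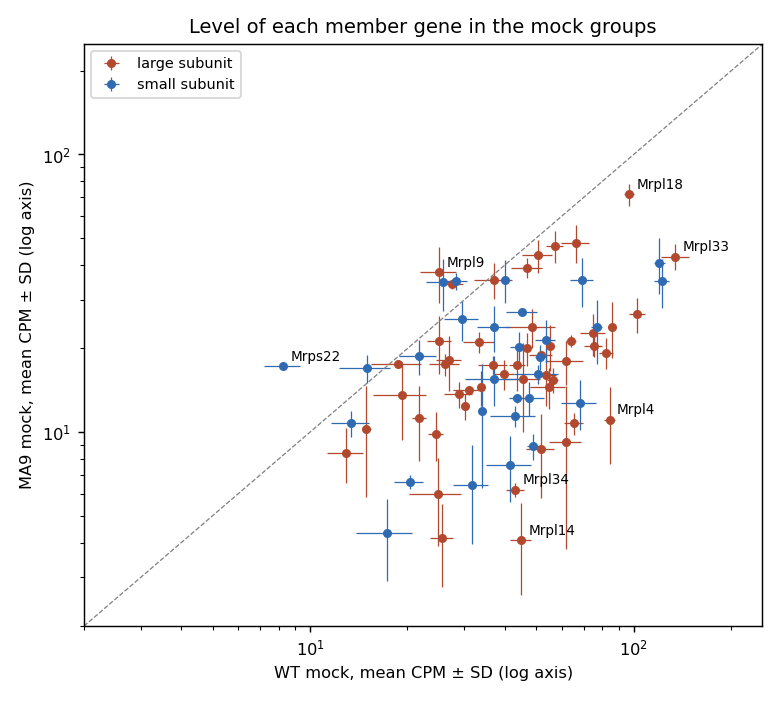
Mean level ± SD (CPM on the 12-library scale, both axes logarithmic, n = 3) of each of the 78 members in WT mock (horizontal) and MA9 mock (vertical), with large and small subunit genes in separate colours and the dashed line marking equality. Most points lie below the line, with Mrpl14 and Mrpl4 farthest below and Mrps22 above it.

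Levels between genes were compared as CPM per kilobase of the deposited gene length. In MA9 mock the members ran from 2.51 (Mrpl47) to 72.3 CPM per kilobase (Mrps21), with a median of 8.55, and in WT mock from 2.51 (Mrps22) to 141 (Mrps21), with a median of 22.2. Mrps21 encodes a small protein of the small subunit, and its deposited length of 488 bases is the shortest of all members. Mrpl18, a large subunit protein that sits by the central protuberance, came second in both MA9 groups at 58.9 CPM per kilobase with mock and 66.5 with sPrdm16. Ranks depend on the length used. With exon lengths from GENCODE M21, an alternative added after seeing the data, Mrps21 ranked second in MA9 mock, and Mrpl20 moved from rank 3 to rank 13 in WT mock. The deposited length equalled the M21 exon length for 4 of the 78 members.

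In MA9, 14 members rose with sPrdm16 and 0 fell, by edgeR's quasi-likelihood test with Benjamini-Hochberg adjustment over all genes tested and a threshold of 0.05. The rises were 11 of 49 large and 3 of 29 small subunit genes. Of 14394 genes tested 17.0% rose and 17.5% fell (34.6% in either direction), so the share of members that rose (17.9%) lay near the background, and the count of falls lay below it. DESeq2 called 2 falls and limma-voom 1, when 20.1% and 19.5% of all genes fell. In the edgeR fit 22 members had an unadjusted p under 0.05, as had 6382 of the 14394 genes. Fitted effects were above 0 for 59 members and below for 19, with a median log2 fold change of 0.20 (0.19 large, 0.21 small) against 0.03 over all genes and 0.06 over nuclear protein-coding genes. In 24 members every sPrdm16 library was above every mock library and in 2 below, against 26.7% and 23.4% of genes tested.

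The MA9 calls were sensitive to single libraries. Of the 14, Mrpl45 alone stayed past the threshold whichever library was left out. Without MA9 sPrdm16 replicate 1, 2 or 3 the count of rises was 2, 2 and 4, when 10.4%, 10.6% and 10.9% of all genes rose. Without MA9 mock replicate 1 it was 9, with 4 falls, when 17.7% of all genes rose and 18.4% fell. Leaving out MA9 mock replicate 3, the library with the fewest protein-coding counts, gave 21 rises and 3 falls. In that fit 21.9% of all genes rose and 21.6% fell. Thinning the libraries to equal protein-coding depth left 6 rises and 1 fall, when 15.04% of genes tested rose and 16.6% fell. Scaled by total counts all 78 members rose in MA9, but so did 79.8% of all genes, whose median moved to 1.43, and the members' median was 1.60. Monocyte and macrophage markers moved in the same comparison, with 1 of 8 tested risen and 5 fallen (Csf1r, Irf8 and Klf4 among them) and summed levels of 369.9 to 555 CPM with mock and 434 to 454 CPM with sPrdm16. Eosinophil markers fell in 4 of 5 tested, from 98 to 148 CPM with mock to 11.9 to 14.1 CPM with sPrdm16, with Ccr3 at 0 in both. Neutrophil markers rose in 4 of 11 and fell in 5, from 2337 to 2830 CPM with mock to 2930 to 3048 CPM. Of 3 stromal and endothelial markers tested 2 rose and 1 fell, from 20.4 to 21.7 CPM to 79.1 to 83.4 CPM, with Cxcl12 and Cdh5 at 0 in MA9 mock. Of 3 mast cell and basophil markers tested 1 fell, from 129.7 to 134 CPM to 54.8 to 62.4 CPM, with Fcer1a, Cpa3, Cma1, Prss34 and Tpsb2 at 0. The part of these cell markers in the members' values was not tested.

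Among large subunit members with bacterial counterparts, Mrpl34 had 5.06, 5.43 and 4.99 CPM in the mock libraries and 8.05, 9.30 and 8.13 CPM in the sPrdm16 libraries of MA9 (scale of the 6 MA9 libraries). The groups lay apart with little spread (log2 fold change 0.72 ± 0.16 (SE), adjusted p = 0.00695), and the call was lost without sPrdm16 replicate 2. Mrpl55 had 4.70, 2.50 and 3.16 CPM in the mock libraries and 5.24, 6.41 and 5.85 CPM in the sPrdm16 libraries, on 26 to 400 counts per library. Its change and its error were the widest among the 14 called (0.74 ± 0.25 (SE), adjusted p = 0.0478). Mrpl30 rose by 0.51 ± 0.14 (adjusted p = 0.0178). Mrpl10, which holds the stalk that recruits translation factors, rose by 0.41 ± 0.13 (adjusted p = 0.0332). Its partners in the stalk did not pass the threshold, with log2 fold changes of 0.12 ± 0.22 for Mrpl11 and 0.04 ± 0.11 for Mrpl12.

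Among large subunit members added in mitochondria, Mrpl45, which lies at the exit of the peptide tunnel and holds the ribosome at the inner membrane, had 16.6, 19.6 and 23.6 CPM in the mock libraries and 28.2, 28.2 and 28.5 CPM in the sPrdm16 libraries. Every sPrdm16 library was above every mock library (0.52 ± 0.12 (SE), adjusted p = 0.0103). Mrpl44, a protein with an RNase III fold, had 10.5, 12.7 and 11.1 CPM in the mock libraries and 16.6, 15.7 and 15.6 CPM in the sPrdm16 libraries (0.48 ± 0.12 (SE), adjusted p = 0.0127). Mrpl43 had 18.3, 15.3 and 14.7 CPM in the mock libraries and 21.8, 20.8 and 23.3 CPM in the sPrdm16 libraries (0.44 ± 0.12 (SE), adjusted p = 0.0158). These are 2 of the 14 that overlap another protein-coding gene, Twnk for Mrpl43 and Wdfy1 for Mrpl44, so that reads of the pair can be mixed. Mrpl54, Mrpl51 and Mrpl42 rose by 0.53, 0.39 and 0.36 on the log2 scale.

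In the small subunit 3 members rose in MA9. Mrps12, the counterpart of the bacterial protein of the decoding centre where streptomycin resistance arises, had 7.32, 6.59 and 8.39 CPM in the mock libraries and 11.8, 11.4 and 10.6 CPM in the sPrdm16 libraries. The groups did not overlap (0.61 ± 0.14 (SE), adjusted p = 0.00914). Mrps16 rose by 0.61 ± 0.20 (adjusted p = 0.0432) and Mrps9 by 0.32 ± 0.08 (adjusted p = 0.013). Mrps9 had 28.4, 31.1 and 27.9 CPM in the mock libraries and 36.8, 35.9 and 36.9 CPM in the sPrdm16 libraries. The lowest small subunit values in MA9 were -0.44 ± 0.16 for Mrps31 (adjusted p = 0.0553) and -0.35 ± 0.13 for Mrps25 (adjusted p = 0.0669), neither past the threshold. Mrpl23 had the lowest value of the large subunit (-0.52 ± 0.30 (SE), adjusted p = 0.214), with mock libraries from 4.82 to 12.4 CPM. Its processed pseudogene Mrpl23-ps1 held up to 1582 counts in a library, so counts of the pair can be split and Mrpl23 is uncertain.

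In WT, 17 members rose with sPrdm16 and 9 fell by the same test, where 17.5% of 14063 genes tested rose and 16.6% fell (34.1% in either direction). The 21.8% of members that rose lay near the background share and the 11.5% that fell below it. The small subunit had 9 rises and 4 falls of 29 and the large subunit 8 rises and 5 falls of 49. The median log2 fold change was 0.15 (0.11 large, 0.22 small) against 0.01 over all genes. In 28 members every sPrdm16 library was above every mock library and in 13 below, against 23.8% and 22.8% of genes tested. Of the 17 rises, 12 stayed past the threshold whichever library was left out, while Mrps6 lost its call without 4 of the 6 libraries in turn, Mrpl11, Mrpl28 and Mrps7 without 2 each and Mrps22 without 1, and of the 9 falls 5 did (Mrpl32, Mrpl33, Mrps18c, Mrps21 and Mrps33). The count of falls was 5 without WT mock replicate 3, WT sPrdm16 replicate 1 or WT sPrdm16 replicate 2. Of all genes 14.2%, 13.1% and 12.2% fell in these fits. Scaled by total counts 35 members rose and 5 fell, when 26.1% of all genes rose and 10.7% fell. The median was then 0.32 for the members and 0.18 for all genes.

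The WT groups also differed in markers of several blood cell types. All 9 mast cell and basophil markers fell, from summed levels of 4499 to 5002 CPM with mock to 461 to 502 CPM with sPrdm16, none of them at 0. Neutrophil markers fell in 7 of 11 and rose in 3, from 21284 to 26246 CPM to 5559 to 5906 CPM. Eosinophil markers fell in 3 of 4 tested, from 221 to 254 CPM to 12.8 to 17.6 CPM, with Ccr3 and Ear1 at 0 in WT sPrdm16. Monocyte markers fell in 5 of 9 and rose in 1, from 2057 to 2254 CPM to 1763 to 1821 CPM. General leukocyte markers fell in 4 of 7, and Kit, a receptor of progenitors and mast cells, rose by 1.17 ± 0.25, adjusted p = 0.00218 on the log2 scale. The 1 lymphoid marker tested, Nkg7, rose, with summed lymphoid levels of 14.1 to 22.7 CPM with mock and 31.9 to 38.7 CPM with sPrdm16. Erythroid markers rose in 2 of 7 and fell in 3, from 179 to 222 CPM to 179 to 204 CPM. Of 3 stromal and endothelial markers tested 2 rose and 1 fell, from 57.2 to 58.1 CPM to 76.7 to 95.4 CPM, with Cxcl12 and Cdh5 at 0 in both groups. The part of these cell types in the members' values was not tested.

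The rises in the WT small subunit began with Mrps27, a pentatricopeptide repeat protein added in mitochondria (chr13:99344786-99415562, mm10). It had 19.1, 21.6 and 15.1 CPM in the mock libraries and 33.8, 40.6 and 37.8 CPM in the sPrdm16 libraries of WT (scale of the 6 WT libraries), so that each sPrdm16 library was above each mock library (1.01 ± 0.17 (SE), adjusted p = 0.000313). Mrps22 had 11.8, 9.18 and 9.89 CPM in the mock libraries and 19.6, 17.2 and 15.9 CPM in the sPrdm16 libraries, again with no overlap (0.77 ± 0.20 (SE), adjusted p = 0.00871), and lost its call without WT sPrdm16 replicate 1. Mrps26, Mrps34 and Mrps18b, all without a direct place in the bacterial ribosome, rose by 0.68 ± 0.12, 0.55 ± 0.12 and 0.62 ± 0.13, with adjusted p = 0.000576, 0.00257 and 0.00172. Among proteins with bacterial counterparts Mrps2 had 30.0, 28.0 and 23.0 CPM in the mock libraries and 48.8, 36.7 and 40.6 CPM in the sPrdm16 libraries (0.64 ± 0.16 (SE), adjusted p = 0.00545). Mrps7, which organises the head of the small subunit, rose by 0.43 ± 0.12 (adjusted p = 0.0131). Mrps5 and Mrps6, named after their values were seen, rose by 0.51 and 0.51. Mrps34, Mrps7 and Mrps6 are the 3 of the 17 risen genes that overlap another protein-coding gene.

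In the WT large subunit Mrpl38, a protein of the central protuberance added in mitochondria, had 34.0, 31.1 and 28.5 CPM in the mock libraries and 50.6, 57.8 and 58.3 CPM in the sPrdm16 libraries. The lowest sPrdm16 library lay well above the highest mock library (0.83 ± 0.13 (SE), adjusted p = 0.000199). Mrpl3 had 31.5, 37.0 and 34.0 CPM in the mock libraries and 53.1, 48.2 and 54.7 CPM in the sPrdm16 libraries (0.61 ± 0.13 (SE), adjusted p = 0.00207). Mrpl12, the stalk protein, which in human cells is also reported to bind the mitochondrial RNA polymerase, had 84.6, 89.4 and 73.4 CPM in the mock libraries and 101, 118 and 129 CPM in the sPrdm16 libraries (0.49 ± 0.11 (SE), adjusted p = 0.00417), and Mrpl11 at the base of the stalk rose by 0.48 ± 0.14 (adjusted p = 0.0163). Mrpl10, the stalk member that rose in MA9, had 0.20 ± 0.12 in WT (adjusted p = 0.229). By edgeR's interaction test the effects in MA9 and WT were not called different for these stalk genes. Adjusted p was 0.244 for Mrpl10, 0.49 for Mrpl11 and 0.13 for Mrpl12. Mrpl16, Mrpl37, Mrpl28 and Mrpl17 rose by 0.49, 0.46, 0.39 and 0.37, the first 3 named after their values were seen.

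Of the 9 members that fell in WT, 5 are in the large subunit by name and 4 in the small. Mrpl33, the counterpart of a small bacterial large-subunit protein, had 149.9, 171 and 181 CPM in the mock libraries and 101, 105 and 96.2 CPM in the sPrdm16 libraries (-0.74 ± 0.10 (SE), adjusted p = 4.5e-05). It spans chr5:31596935-31664384 (mm10) and overlaps Rbks. Mrps21 had 78.4, 87.4 and 91.7 CPM in the mock libraries and 52.7, 58.2 and 57.7 CPM in the sPrdm16 libraries (-0.61 ± 0.11 (SE), adjusted p = 0.000589). Mrps33 had 92.0, 97.9 and 96.9 CPM in the mock libraries and 58.5, 61.7 and 70.0 CPM in the sPrdm16 libraries (-0.59 ± 0.11 (SE), adjusted p = 0.000595). In all of these the sPrdm16 libraries lay below every mock library. Mrpl32, a zinc-binding protein that a mitochondrial protease must trim before it joins the particle, had 55.3, 50.8 and 56.7 CPM in the mock libraries and 34.4, 38.2 and 36.6 CPM in the sPrdm16 libraries (-0.58 ± 0.12 (SE), adjusted p = 0.00218). Mrpl41, Mrpl48 and Mrpl51 fell by 0.43, 0.35 and 0.28 on the log2 scale, and Mrps14, named after its value was seen, fell by 0.26. The calls of Mrpl48, Mrpl51 and Mrps14 were each lost without 5 of the 6 libraries in turn.

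Mrps18a, Mrps18b and Mrps18c are mitochondrial relatives of 1 bacterial small subunit protein, of which Mrps18c holds the bacterial site. They did not move alike in WT. Mrps18b rose with 48.5, 62.9 and 48.5 CPM in the mock libraries and 82.5, 74.9 and 87.9 CPM in the sPrdm16 libraries, Mrps18c fell with 74.3, 85.3 and 94.7 CPM in the mock libraries and 55.7, 61.0 and 61.8 CPM in the sPrdm16 libraries (-0.51 ± 0.12 (SE), adjusted p = 0.00345), and Mrps18a, placed in the large subunit, had 0.25 ± 0.11 (adjusted p = 0.0838). In MA9 the log2 fold changes of the 3 were 0.21, 0.30 and 0.20, none past the threshold. Mrps30 had 0.32 ± 0.13 in WT and 0.21 ± 0.13 in MA9, and Mrps36 -0.28 ± 0.13 and 0.23 ± 0.29, none of them called. Mrpl58, a peptidyl-tRNA hydrolase built into the large subunit that frees stalled chains, had 0.05 ± 0.15 in WT and 0.20 ± 0.14 in MA9. Counting subunits by structure left the numbers of called genes in each subunit as they were by name in both genotypes.

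**Figure D3:**
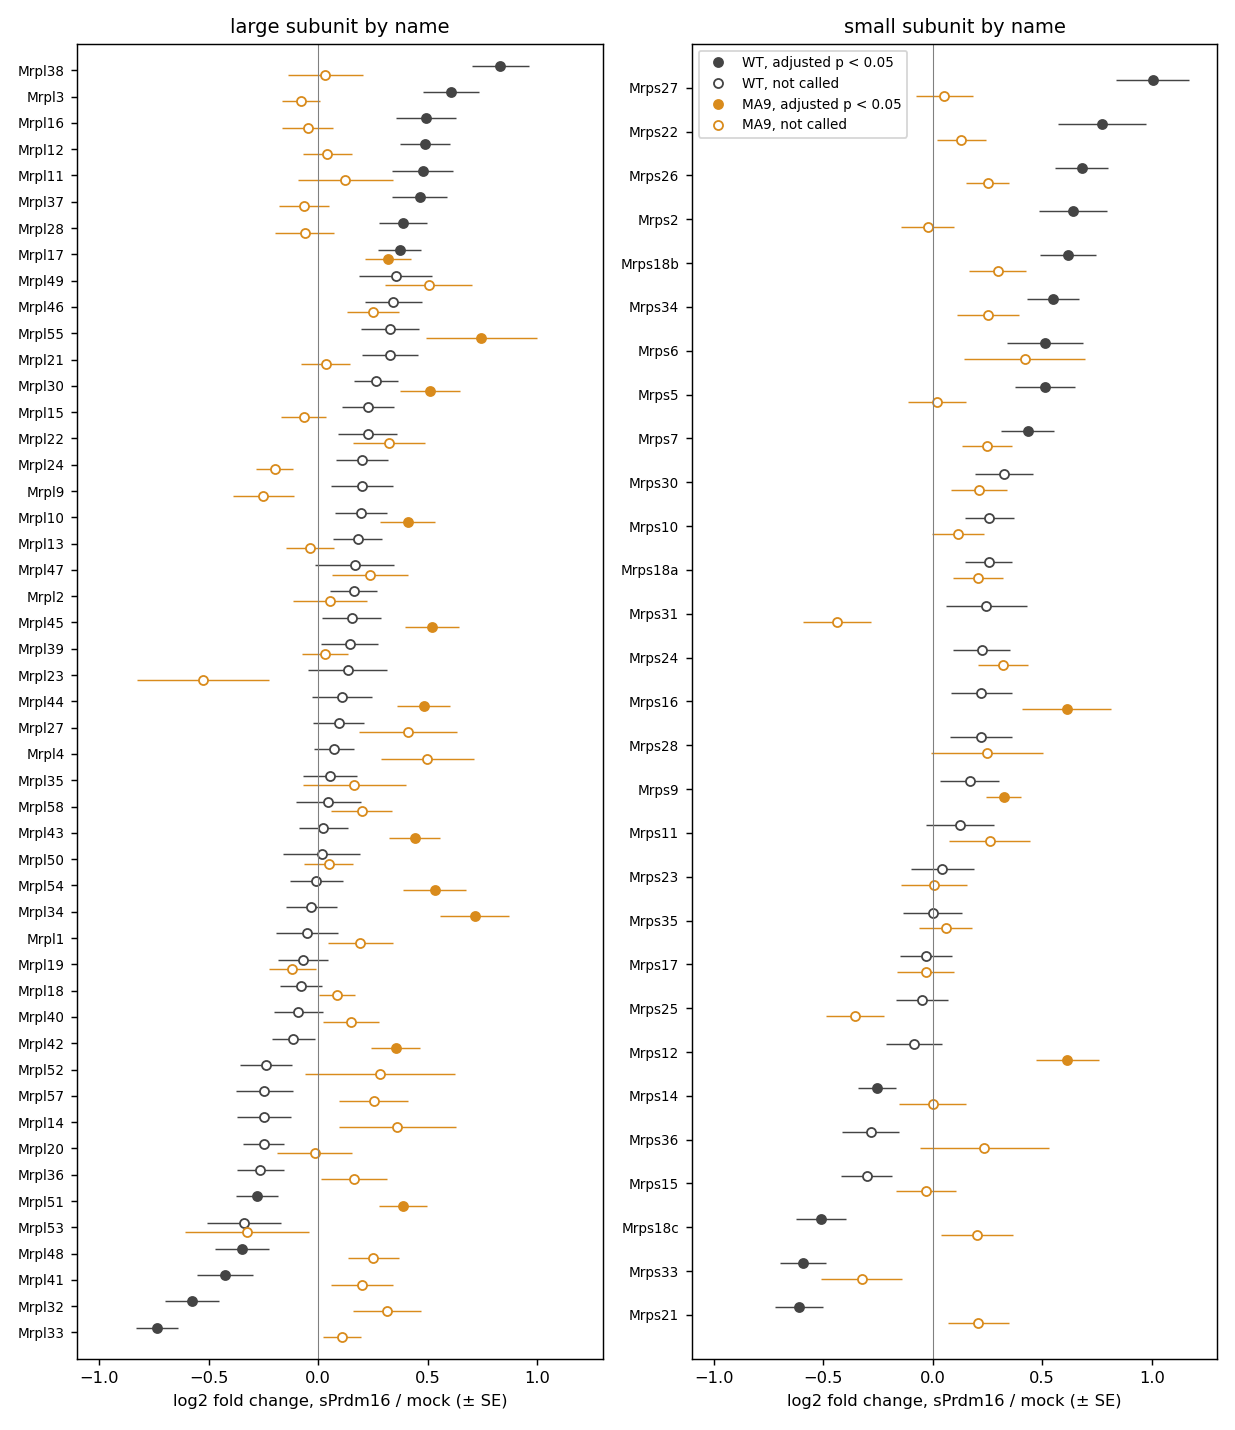
Log2 fold change ± SE of sPrdm16 over mock for each of the 49 large (left) and 29 small (right) subunit genes by name, ordered by the WT value, with WT in grey and MA9 in orange. Filled points passed an adjusted p of 0.05. WT values ran from -0.74 (Mrpl33) to 1.01 (Mrps27) and MA9 values from -0.52 (Mrpl23) to 0.74 (Mrpl55).

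The fits of the 2 genotypes share no library, and 2 members were called in both, which is 14.3% of the 14 MA9 calls and 7.69% of the 26 WT calls. Of 12373 genes tested in both fits 1727 were called in both, 41.3% of the MA9 calls and 39.8% of the WT calls, of which 1003 moved the same way. The members' overlap was not tested against that background, and it rests on MA9 calls of which Mrpl45 alone stayed whichever library was left out. Mrpl17, a protein near the tunnel exit, rose in both, as 1 of 14 rises in MA9 and 1 of 17 in WT. It had 16.6, 18.4 and 18.2 CPM in the mock libraries and 20.2, 23.9 and 22.2 CPM in the sPrdm16 libraries of MA9, and 77.1, 82.2 and 80.4 CPM in the mock libraries and 97.9, 101 and 112 CPM in the sPrdm16 libraries of WT. Its log2 fold change was 0.32 ± 0.11 (SE), adjusted p = 0.0453, in MA9 and 0.37 ± 0.10 (SE), adjusted p = 0.00914, in WT, and the difference of 0.03 ± 0.15 did not pass the threshold (adjusted p = 0.951). Mrpl51 rose in MA9 and fell in WT. A further 12 members were called in MA9 but not WT, 24 in WT but not MA9, and 40 in neither. Across the 78 members the MA9 and WT log2 fold changes had a Pearson r of -0.0018 and a Spearman rho of -0.03, given as a description since members are not independent, and r over all genes tested in both was 0.15. The rho was -0.18 in the large and 0.22 in the small subunit.

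**Figure D4:**
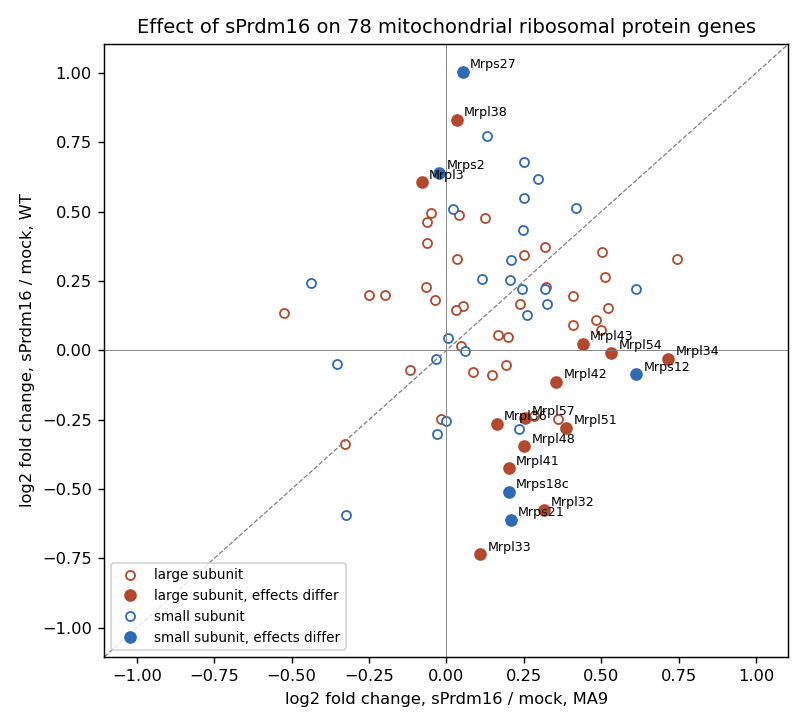
Log2 fold change of sPrdm16 over mock in MA9 (horizontal) and WT (vertical) for the 78 members, with equality as a dashed line and members whose effects differed at an adjusted p of 0.05 marked. Pearson's r was -0.0018. Mrpl33, Mrpl32 and Mrps21 lie below the line and Mrps27 and Mrpl38 above it.

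Whether sPrdm16 acted alike in both genotypes was tested by an interaction term in edgeR's quasi-likelihood fit of the 12 libraries, in which a constant difference between the tables cancels. The effect in MA9 exceeded that in WT for 14 members and lay below it for 4, where of 16194 genes tested 16.0% were higher and 1945 genes lower (28.0% in either direction). By name the large subunit had 11 higher and 2 lower and the small subunit 3 and 2, and the median difference was 0.17 against 0.08 over all genes. Scaled by total counts 67 were higher and 0 lower, when 50.5% of all genes were higher and 2.11% lower. The medians were then 1.31 for the members and 1.21 for all genes. Of the 18 calls 12 stayed past the threshold whichever of the 12 libraries was left out. Without MA9 mock replicate 3 there were 22 higher, when 15.97% of all genes were higher. The 4 lower calls became 7 without WT mock replicate 1, when 11.1% of all genes were lower. They became 2 without MA9 mock replicate 2, MA9 sPrdm16 replicate 2 or WT mock replicate 3, when 9.87%, 9.06% and 10.7% of all genes were lower.

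The gaps came from different sides. For Mrpl32 (difference 0.97 ± 0.20 (SE), adjusted p = 0.00126), Mrpl33 (0.93 ± 0.14 (SE), adjusted p = 8.9e-05) and Mrps21 (0.90 ± 0.18 (SE), adjusted p = 0.00113) a fall in WT met values in MA9 that did not pass the threshold, at 0.31, 0.11 and 0.21. In MA9 Mrpl33 had 39.7, 34.3 and 33.2 CPM in the mock libraries and 38.5, 38.8 and 38.7 CPM in the sPrdm16 libraries, and the libraries of the groups overlapped. For Mrpl34 (0.83 ± 0.18 (SE), adjusted p = 0.00248) and Mrps12 (0.78 ± 0.20 (SE), adjusted p = 0.00551) a rise in MA9 met WT values of -0.03 and -0.09, neither called. In WT Mrpl34 had 49.7, 54.9 and 56.0 CPM in the mock libraries and 52.6, 52.4 and 52.2 CPM in the sPrdm16 libraries. On the 12-library scale the MA9 sPrdm16 libraries of Mrpl34, at 10.3, 12.1 and 10.3 CPM, were still below every WT library, the lowest of which was at 39.8 CPM. Mrpl51 moved both ways (0.75 ± 0.15 (SE), adjusted p = 0.00121).

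The members with the opposite sign were Mrps27 (-0.87 ± 0.22 (SE), adjusted p = 0.00674), Mrpl38 (-0.72 ± 0.22 (SE), adjusted p = 0.0197), Mrpl3 (-0.60 ± 0.16 (SE), adjusted p = 0.00771) and Mrps2 (-0.58 ± 0.21 (SE), adjusted p = 0.0494). All 4 rose in WT, and their MA9 log2 fold changes were 0.05, 0.03, -0.08 and -0.02. On the 12-library scale Mrps27 was at 15.1, 19.0 and 16.9 CPM in the MA9 libraries with mock and 17.2, 19.2 and 19.96 CPM with sPrdm16. In WT it was at 15.3, 17.4 and 12.1 CPM with mock and 27.3, 32.9 and 30.6 CPM with sPrdm16. The first 3 groups overlapped and WT sPrdm16 stood above them. With total counts the sign of all 4 differences turned, where the median over all genes was 1.21. The values became 0.29 for Mrps27, 0.47 for Mrpl38, 0.57 for Mrpl3 and 0.55 for Mrps2.

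**Figure D5:**
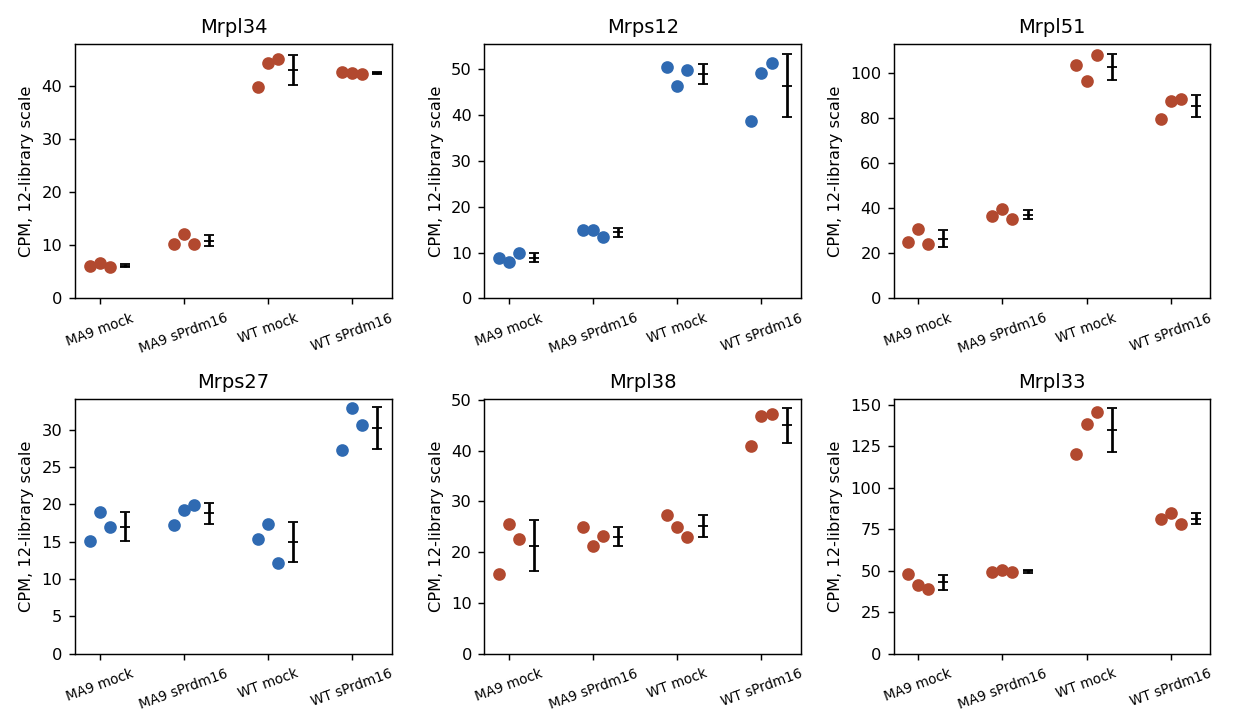
CPM on the 12-library scale (vertical axes from 0) of 6 members in each of the 12 libraries, with the mean ± SD of each group (n = 3) beside its points. The upper row holds members that rose in MA9 (Mrpl34, Mrps12, Mrpl51), and the lower row Mrps27 and Mrpl38, which rose in WT, and Mrpl33, which fell there.

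Other genes of the same machinery were counted from lists. Of all genes tested 17.5% rose and 16.6% fell in WT, and 17.0% rose and 17.5% fell in MA9. A list of 6 held 5 mitoribosome proteins with other symbols and Oxa1l, an inner-membrane insertase that docks on the ribosome and is not part of it. In WT 4 of the 6 rose and 1 fell. The rises were the ribosomal proteins Gadd45gip1 (log2 fold change 0.54 ± 0.13, adjusted p = 0.00585), Dap3 and Ptcd3, and Oxa1l (0.65 ± 0.13, adjusted p = 0.00153). In MA9 Gadd45gip1 alone of the 6 rose (0.69 ± 0.11, adjusted p = 0.00125). Of 27 assembly factors 12 rose and 0 fell in WT. Among them were Rcc1l (1.08 ± 0.19, adjusted p = 0.000531), which acts together with Rpusd4, and the small subunit chaperone Eral1 (0.73 ± 0.18, adjusted p = 0.00543). In MA9 3 of the 27 rose and 6 fell, with Rbfa, a maturation factor of the small subunit, at 0.64 ± 0.10, adjusted p = 0.00092 and the GTPase Gtpbp6 at -0.96 ± 0.18, adjusted p = 0.00265. The list medians were 0.42 in WT and 0.01 in MA9. In MA9 the lists' directions rest on the scaling, since with total counts 25 of the 27 rose and 0 fell, when 79.8% of all genes rose and 4.22% fell.

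Translation factors rose in 4 of 15 in WT (26.7%, against 17.5% of all genes tested), among them the elongation factor Tufm (0.43 ± 0.11, adjusted p = 0.00814). In MA9 0 of 15 rose by edgeR, where 2 had an unadjusted p under 0.05. With nuclear protein-coding genes alone 2 of them fell in MA9, when 18.9% of all genes in that fit fell. Mitochondrial aminoacyl-tRNA synthetases rose in 12 of 20 in WT (60%) and fell in 1 (5%, against 16.6% of all genes tested), with Vars2 at 1.29 ± 0.17, adjusted p = 4.9e-05. In MA9 2 rose and 2 fell, with Iars2 at 0.44 ± 0.08, adjusted p = 0.00206. The falls were Lars2 (-3.24 ± 0.35, adjusted p = 0.00113) and Fars2 (-0.51 ± 0.17, adjusted p = 0.0426). Lars2 was the 1 that fell in WT. Its MA9 value lay near the median of the protein genes of the mitochondrial genome (-3.59). The mitochondrial rRNA share was also lower with sPrdm16 in both genotypes. The part of mitochondrial RNA in the Lars2 counts was not tested, so the Lars2 falls are uncertain. Genes of mitochondrial transcription and RNA processing rose in 7 of 22 in WT (31.8%), with the RNA polymerase Polrmt at 1.31 ± 0.17, adjusted p = 3.6e-05. In MA9 4 of 22 rose (18.2%), near the 17.0% of all genes tested, with Tfam, which packs the mitochondrial genome, at 0.30 ± 0.09, adjusted p = 0.0339. By edgeR with TMM over all genes neither genotype had a fall in this list, and in MA9 1 fell with nuclear protein-coding genes alone.

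The mRNAs that the mitochondrial ribosome translates went the other way. Of 13 protein genes of the mitochondrial genome 9 fell in WT, with a median of -0.48, and all 13 fell in MA9, with a median of -3.59. With total counts 4 fell in WT and all 13 in MA9, with medians of -0.31 and -1.97. The MA9 value moved with the mitochondrial rRNA share given above, and its source was not tested. Nuclear genes of the respiratory chain fell in 30 of 73 tested in WT (41.1%) and rose in 10 (13.7%), with a median of -0.18. In MA9 10 rose (13.7%) and 5 fell (6.85%). With total counts 21 of the 73 rose and 10 fell in WT (median -0.0017) and all 73 rose in MA9. Of all genes 26.1% rose and 10.7% fell in WT with total counts, and 79.8% rose in MA9. Cytosolic ribosomal proteins, the counterpart outside mitochondria, rose in 21 (26.6%) and fell in 2 (2.53%) of 79 in WT, with a median of 0.08. In MA9 16 rose (20.3%) and 19 fell (24.1%), while with total counts 77 rose and 0 fell there. Of all genes tested in the TMM fits 17.5% rose and 16.6% fell in WT, and 17.0% rose and 17.5% fell in MA9. The members' WT median of 0.15 thus lay below that of the synthetases (0.65), the assembly factors (0.42) and the translation factors (0.26), and above those of the respiratory chain and cytosolic ribosome genes.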

How the data were processed

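Total RNA of mouse bone marrow cells (4 groups, 3 libraries each) was purified by RNeasy Mini kit and made into Nextera XT libraries, per the labels' protocols. The authors deposited 1 table per genotype with expected counts per gene, made with DRAGEN (no version) on mm10 per the submitters' processing notes, and non-whole numbers made up 5.19% to 10.2% of each library's values. The annotation is not given in the sources used here, but the deposited coordinates of all 78 members equalled GENCODE M21. Strand, rRNA removal and molecular identifiers are not stated, so overlapping genes cannot be separated (25 members overlap another protein-coding gene).

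Expected counts were rounded and tested with edgeR 4.0.16 in R 4.3.3 (TMM, minimum count 10, robust quasi-likelihood F test, Benjamini-Hochberg over all genes tested, threshold 0.05). Each genotype was fitted on its own 6 libraries and the interaction on all 12. "Rose" and "fell" are used past the threshold. SEs derive from the F statistic and SDs cover 3 libraries. The script was tested on simulated data. Alternatives were DESeq2 1.42.0, limma-voom (limma 3.58.1), RLE scaling, total counts, nuclear protein-coding genes alone, filters, thinning, a fit on all libraries, the replicate number as a block, and each library left out.

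Members and lists were chosen with earlier results of these data known. Lists held 320 symbols, of which 317 matched. Values of some marker genes are not reported here. Members named were those called (up to 15 per comparison by smallest p), the 2 highest and 2 lowest of each subunit and comparison, and 12 with a known special place. Up to 4 called genes per other list could be named. Beyond this rule, Mrpl14, Mrpl16, Mrpl18, Mrpl20, Mrpl28, Mrpl37, Mrpl4, Mrpl47, Mrpl57, Mrps14, Mrps5 and Mrps6 were named after their values were seen. Which members have bacterial counterparts was assigned from general knowledge. Promoter windows are RefSeq's, for GRCm38.p6.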

Additional observations from a re-analysis of the deposited data

Results flagged for a closer look

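The effect of sPrdm16 differed between MA9 and WT, by edgeR's interaction test at an adjusted p of 0.05, in 18 members. Of 16194 genes tested 28.0% differed in either direction, 16.0% with the higher effect in MA9 and 1945 genes with the lower. Among the members the MA9 effect was the higher in 14 (17.9%) and the lower in 4 (5.13%). On the log2 scale the differences (MA9 minus WT) were 0.97 for Mrpl32, 0.93 for Mrpl33, 0.90 for Mrps21, 0.83 for Mrpl34, 0.79 for Mrps18c, 0.78 for Mrps12 and 0.75 for Mrpl51. They were 0.71 for Mrpl41, 0.68 for Mrpl48, 0.62 for Mrpl54, 0.58 for Mrpl57 (named after its value was seen), 0.55 for Mrpl42, 0.51 for Mrpl36 and 0.50 for Mrpl43. In 4 it was the lower, by -0.87 for Mrps27, -0.72 for Mrpl38, -0.60 for Mrpl3 and -0.58 for Mrps2. Calls of Mrpl36, Mrpl38, Mrpl43, Mrpl54, Mrpl57 and Mrps2 were lost when some single library was left out. With 3 libraries per group no library could be tested as an outlier. Prdm16 itself was higher in MA9 sPrdm16 than in WT sPrdm16, so its level and the genotype cannot be told apart in these differences.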

How the results depend on the processing

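The MA9 mock libraries held 11309 to 22590 member counts, against 77940 to 90457 in WT, and whether depth set the MA9 calls was not tested beyond thinning. The rises in MA9 fell from 14 to 9 with a filter of 5 CPM in 3 libraries and to 6 with thinning, and 78 rose with total counts. Of all genes 17.0% rose in the main fit, 18.7% with the filter, 15.04% with thinning and 79.8% with total counts. The members' rises ranged from 2 to 21 with 1 library left out, and their falls from 0 to 4. Of all genes 10.4% to 21.9% rose and 11.999% to 21.6% fell in these fits. Falls in MA9 numbered 2 with DESeq2, 1 with RLE scaling, 3 with the 5 CPM filter, 1 with limma-voom, 2 with nuclear protein-coding genes alone and 1 with thinning. Under these settings, in the same order, 20.1%, 18.3%, 20.2%, 19.5%, 18.9% and 16.6% of all genes tested fell. The MA9 median of 0.20 became 0.29 in a fit on all 12 libraries, 0.29 with no filter and 1.60 with total counts, and ranged from 0.11 to 0.22 with 1 library left out. Over all genes the MA9 median of 0.03 became 0.11 on all 12 libraries, 0.08 with no filter and 1.43 with total counts. WT counts became 35 rises and 5 falls with total counts (median 0.32), and ranged from 14 to 18 rises and 5 to 8 falls with 1 library left out. Of all genes 26.1% rose and 10.7% fell in WT with total counts, with a median of 0.18. With 1 WT library left out 12.6% to 16.4% of all genes rose and 12.2% to 14.6% fell.

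For the difference between genotypes, higher members numbered 9 with thinning and 67 with total counts, and 11 to 22 with 1 library left out. Of all genes 15.4%, 50.5% and 12.8% to 15.97% were higher in these fits. Lower members numbered 8 with DESeq2, 7 with the 5 CPM filter, 2 with no filter and 0 with total counts, and 2 to 7 with 1 library left out. Of all genes 15.4%, 18.5%, 5.75%, 2.11% and 9.015% to 11.9% were lower in these fits. The median difference of 0.17 became 0.26 with no filter and 1.31 with total counts, and ranged from 0.12 to 0.27 with 1 library left out. Over all genes the median difference of 0.08 became 0.14 with no filter and 1.21 with total counts. With total counts 0 members were higher in MA9 mock than in WT mock, against 4 with TMM. Of all genes 11.9% were higher with total counts and 34.5% with TMM.

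Signs turned with total counts, whose construction moves the median of all genes from 0.03 to 1.43 in MA9 and from 0.08 to 1.21 in the difference. In MA9 the values became 0.99 for Mrpl23, 1.35 for Mrpl3, 1.13 for Mrpl53, 1.37 for Mrps2, 1.09 for Mrps25, 0.96 for Mrps31 and 1.15 for Mrps33. In the difference they became 0.92 for Mrpl11, 0.81 for Mrpl12, 0.57 for Mrpl3, 0.47 for Mrpl38, 0.90 for Mrps18b, 0.55 for Mrps2, 0.96 for Mrps25, 0.82 for Mrps26, 0.29 for Mrps27, 1.10 for Mrps30, 0.96 for Mrps34 and 1.04 for Mrps7. For changes under the other settings the cause was not tested.

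With the replicate number as a block, MA9 had 10 rises and 0 falls, WT 17 rises and 9 falls, and the difference 13 higher and 3 lower. Of all genes 14.6% rose and 14.5% fell in MA9 with the block, and 17.1% and 15.8% in WT. In the difference 14.8% of all genes were higher and 10.7% lower. Deviations of same-numbered libraries had r from -0.088 to -0.0098 in MA9 and from -0.0056 to 0.071 in WT. For differently numbered libraries r ran from -0.069 to 0.126 in MA9 and from -0.067 to 0.070 in WT. Such small values cannot decide whether libraries of the same number shared a culture or preparation, which the labels do not state.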

Other observations

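Members were also grouped by origin, as 46 with a bacterial counterpart and 31 added in mitochondria, an assignment made after the data had been seen. The 31 include Mrps18a and Mrps18b, which are relatives of a bacterial protein whose site Mrps18c holds. In MA9 8 of the 46 (17.4%) and 6 of the 31 (19.4%) rose, with median log2 fold changes of 0.16 and 0.21. Of all genes tested 17.0% rose in MA9, with a median of 0.03. In WT 10 of the 46 rose (21.7%) and 5 fell (10.9%), and 7 of the 31 rose (22.6%) and 4 fell (12.9%), with medians of 0.17 and 0.05. Of all genes tested 17.5% rose and 16.6% fell in WT, with a median of 0.01. In the difference between genotypes 7 were higher and 2 lower in each class, where of 16194 genes tested 16.0% were higher and 1945 genes lower. The classes were not tested against each other.

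Across the 78 members Spearman's rho of the log2 fold change with the deposited gene length was -0.29 in MA9 and 0.23 in WT, against -0.10 and -0.03 over nuclear protein-coding genes. These are descriptions across genes, which are not independent. The median length was 2504 bases for the 17 genes that rose in WT, 2741 for the 9 that fell and 1682.5 for the 52 not called.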
